A study of Mus musculus with 6 samples.

Results

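Pyruvate dehydrogenase and the tricarboxylic acid (TCA) cycle are represented here by 31 genes, chosen by name. They are the subunits of the pyruvate dehydrogenase complex and its kinases, the enzymes of the cycle, cytosolic isocitrate and malate dehydrogenases, pyruvate carboxylase and ATP citrate lyase. The probes were those whose gene name, or its current form, was 1 of the 31, which gave 52 probes. The array carried 27342 distinct gene or transcript names, of which 18976 could be tested, and all 31 members were among them. Messenger RNA had been measured in whole testes of mice lacking Prss37, a testis gene of the trypsin-like serine protease family, and of wild-type mice. Both genotypes were C57BL/6 males aged 6 to 8 weeks, with 3 animals each per the design text, and each array was taken as 1 animal. The labels write the genotype as Prss37-/- and do not state which part of the gene was removed. In the knockout samples a description field names Prss55, while title and source name Prss37.

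The pyruvate dehydrogenase complex turns pyruvate into acetyl-CoA inside mitochondria and so joins glycolysis to the TCA cycle, which oxidises acetyl-CoA and feeds electrons to the respiratory chain. Its E1 enzyme is switched off when a kinase of the Pdk family phosphorylates the alpha subunit. In the testis the X-linked gene of that subunit, Pdha1, is silenced during male meiosis, and an intronless autosomal copy, Pdha2, is expressed in germ cells. Sertoli cells supply lactate to these cells, which convert it to pyruvate for the cycle.

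No member passed the test in knockout testes. With limma and Benjamini-Hochberg adjustment over all genes, 0 of 31 were called in either direction, against 2.46% of the 18976 genes tested (1.21% higher, 1.25% lower). At an adjusted p under 0.1 the count was again 0 of 31, against 9.84% of all genes. At an unadjusted p under 0.05 there were 4 of 31 members (12.9%), against 23.9% of all genes. The 3 knockout and 3 wild-type arrays did not overlap in 10 of 31 members (32.3%), 4 with knockout above and 6 with knockout below, against 31.6% of all genes. These shares were near or below the background of this fit, which has no term for the slide. The count over all genes itself depended on the design: 30 higher and 49 lower with the slide as a block, and 0 higher and 2 lower without knockout replicate 2. No member was called in either case. The median log2 difference, knockout minus wild type, was -0.003 over the members and -0.002 over all genes, with 15 members above 0 and 16 below. The median size without sign was 0.065, against 0.091 over all genes.

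The fit, with no term for the slide, limits how large a difference could be on the brightest probe of most members. The 95% interval of the log2 difference lay within 0.32 of 0, which is a 1.25-fold change either way, in 29 of 31 members, against 62.3% of all genes tested. The exceptions were the kinase gene Pdk4 and Ogdh. The bound covers 1 probe per gene and need not hold for other probes. For example, a second, dimmer Aco1 probe gave 0.38 (SE 0.15), outside it. Levels are given below as the log2 processed signal relative to the 75th percentile of the array, so that 0 stands for that percentile. All 31 members were well above background on all 6 arrays. A probe's level depends on its sequence, so levels are compared only between arrays. In whole tissue a lower level through fewer cells of a type cannot be told apart from less RNA per cell.

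**Figure D1:**
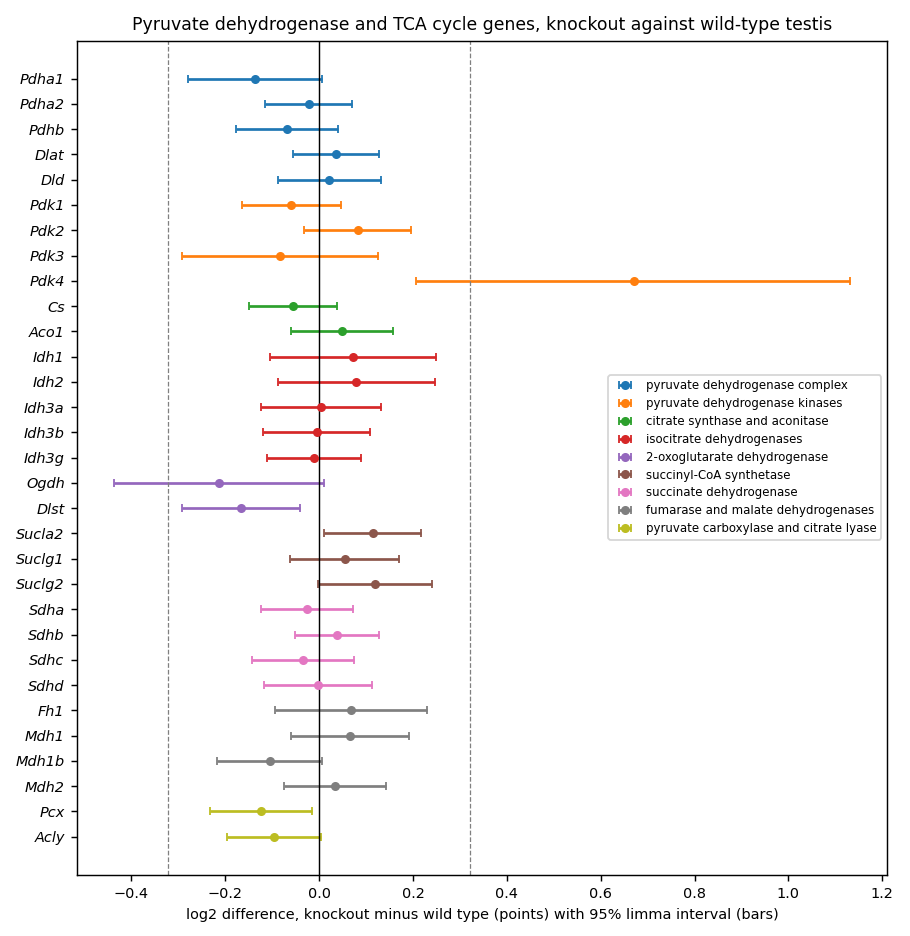
Log2 difference, knockout minus wild type, for each of the 31 genes, coloured by enzyme group, with the 95% interval of the limma fit (n = 3 arrays per genotype). Dashed lines mark a 1.25-fold difference; the intervals of Pdk4 and Ogdh cross 1 of them, and the other 29 stay between them.

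The targeted gene gave log2 levels of 5.39, 5.51 and 5.47 in the knockout and 6.17, 6.06 and 6.27 in the wild type, a Prss37 difference of -0.71 (SE 0.07, adjusted p = 0.024), with the genotypes apart. It was still well above background on all 3 knockout arrays, and whether its probe lies in the deleted part is not known. Arrays differed little in scale, with a 75th percentile of the processed signal between 1550.0 and 1706.9 and 69.18% to 71.44% of spots well above background. The 6 arrays sat on 2 slides, scanned separately, with replicates 1 and 2 of each genotype on slide 1 and replicate 3 of each on slide 2. The median absolute log2 difference between arrays was 0.051 to 0.11 within a genotype and 0.11 to 0.13 between genotypes. Germ and somatic markers of the testis were present: 9 of 9 spermatocyte, 10 of 10 spermatid, 9 of 10 Sertoli and 8 of 9 Leydig markers were tested, all of these well above background on every array, while Amh and Insl3 were not among the tested genes. No marker in these 4 lists was called.

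The E1 alpha subunit has its somatic and its germ cell gene on separate chromosomes, and neither was called. Pdha1, on X, had log2 levels of -2.25, -2.31 and -2.42 in the knockout and -2.24, -2.20 and -2.14 in the wild type. The genotypes did not overlap, but knockout replicate 1 lay only just below wild-type replicate 1. The Pdha1 difference was -0.14 (SE 0.06, 95% interval -0.28 to 0.007, adjusted p = 0.23); it was -0.061 on slide 1 and -0.29 on slide 2. A second Pdha1 probe, further downstream in the transcript, gave -0.11 with overlapping genotypes. For Pdha2, on chromosome 3, the levels were 3.33, 3.34 and 3.31 in the knockout and 3.36, 3.32 and 3.37 in the wild type. Those values overlapped and spread over less than 0.1 in all. The Pdha2 difference was -0.022 (SE 0.04, 95% interval -0.12 to 0.07, adjusted p = 0.76).

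The other subunits of the complex also gave small differences. Pdhb, the E1 beta subunit, had a log2 difference of -0.068 (95% interval -0.18 to 0.041), and its other probe gave -0.044. Dld, the E3 subunit shared with the 2-oxoglutarate and branched-chain complexes, had 0.022 (-0.087 to 0.13), and its 3 probes ran from 0.008 to 0.035. Dlat, the E2 core that carries the acetyl group, was the only subunit whose probes lay on both sides of 0. The brighter Dlat probe gave 0.036 (95% interval -0.055 to 0.13), and the other, near the 3′ end of the transcript, gave -0.071. The brighter one is shown because it covers 961 bases of genome with 60 bases of sequence and so spans a splice junction of the mature transcript (chr9:50444618-50445578, mm9, minus strand).
Dlat probe: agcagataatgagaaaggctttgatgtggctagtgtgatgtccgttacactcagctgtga

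Among the 4 kinases that switch the complex off, Pdk4 gave the largest difference of all 31 members. Pdk4, known as the isoform induced by fasting in muscle and other tissues, had log2 levels of -2.62, -2.73 and -2.91 in the knockout and -3.06, -3.40 and -3.80 in the wild type. All 3 knockout arrays lay above all 3 wild-type arrays, and the SD was 0.15 in the knockout and 0.37 in the wild type (n = 3). The Pdk4 difference was 0.67 (SE 0.19), or 1.59-fold, with a 95% interval from 0.21 to 1.13 and an adjusted p of 0.11, so it was not called. By slide it was 0.56 (slide 1) and 0.89 (slide 2), and blocking on the slide gave an adjusted p of 0.070. Leaving out 1 array moved it between 0.48 and 0.85. Pdk4 is measured by a single probe at chr6:5433441-5433500 (mm9, minus strand), where the wild-type processed signals were 193.3, 150.1 and 122.7 and the knockout signals 270.8, 233.7 and 211.5.

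The remaining kinases gave log2 differences of -0.059 in Pdk1, 0.082 in Pdk2 and -0.083 in Pdk3, each with overlapping genotypes on the brightest probe. Pdk1, a target of hypoxia signalling, had a second probe at -0.20 (SE 0.056, adjusted p = 0.12 in the limma fit over single probes). On that probe the genotypes did not overlap, with levels of -1.436, -1.493 and -1.492 in the knockout and -1.310, -1.177 and -1.337 in the wild type. Pdk3 is X-linked, and its wild-type levels of 1.642, 1.499 and 1.830 enclosed the knockout levels of 1.588, 1.573 and 1.561. Its SD was 0.17 in the wild type and 0.013 in the knockout (n = 3). The difference rested on wild-type replicate 3, without which it was 0.004. The second Pdk3 probe gave 0.042, so the probes lay on both sides of 0. The first is printed because it crosses a splice junction, with 3693 bases of genome behind its 60 bases (chrX:91010552-91014244, mm9, minus strand).
Pdk3 probe: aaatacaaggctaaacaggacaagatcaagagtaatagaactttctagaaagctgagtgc

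Markers of other cell types were set beside the kinase values, since Pdk4 is expressed in several somatic tissues. Macrophage markers had a median log2 difference of 0.20, with 9 of 10 above 0 and 0 called. Their summed level, in multiples of the array's 75th percentile, ran from 67.2 to 89.7 in the knockout and from 75.3 to 90.7 in the wild type. Such a sum is weighted to the brightest probes of a list, so it can differ from the median. Adipocyte markers had a median of -0.17, with 3 of 8 tested above 0. Their summed level was 8.98 to 9.48 in the knockout and 9.61 to 10.3 in the wild type, and Cidea, a lipid droplet protein gene, was the 1 called in this list, lower in the knockout (-0.42, adjusted p = 0.041). Leydig markers had a median of -0.01 with summed levels of 33.6 to 37.3 and 32.3 to 37.7. Of 3 erythroid markers tested, with a median of -0.23, Alas2, the erythroid enzyme of haem synthesis, was called higher in the knockout (0.53, adjusted p = 0.039). Their summed level was 5.05 to 5.73 in the knockout and 4.05 to 6.72 in the wild type. Over all genes tested, 2.46% were called. Without knockout replicate 2, 0 genes were called higher, so the Alas2 call was lost there. Whether the Cidea call holds under other processing is not given here. Spermatogonia markers had a median of 0.02, with 3 of 5 above 0 and 0 called. Their summed level was 14.3 to 14.5 in the knockout and 15.9 to 17.9 in the wild type, with Stra8 at -0.42 and Uchl1 at -0.19 the 2 markers below 0. Sertoli markers also had a median of 0.02, with 6 of 9 above 0 and 0 called, and summed levels of 134 to 136 and 125 to 129. Peritubular markers had a median of -0.03, with 1 of 5 above 0 and 0 called. Their summed level was 13.4 to 15.0 in the knockout and 15.0 to 15.5 in the wild type. Endothelial markers also had -0.03, with 1 of 4 tested above 0, 0 called, and summed levels of 3.07 to 3.31 and 3.25 to 3.33. Spermatid markers had a median of 0.09 with 8 of 10 above 0, and summed levels of 1200 to 1340 in the knockout and 1190 to 1270 in the wild type. Spermatocyte markers had 0.03 with 5 of 9 above 0, and summed levels of 354 to 383 and 343 to 364. The part of any of these cells in the members' values was not tested.

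**Figure D2:**
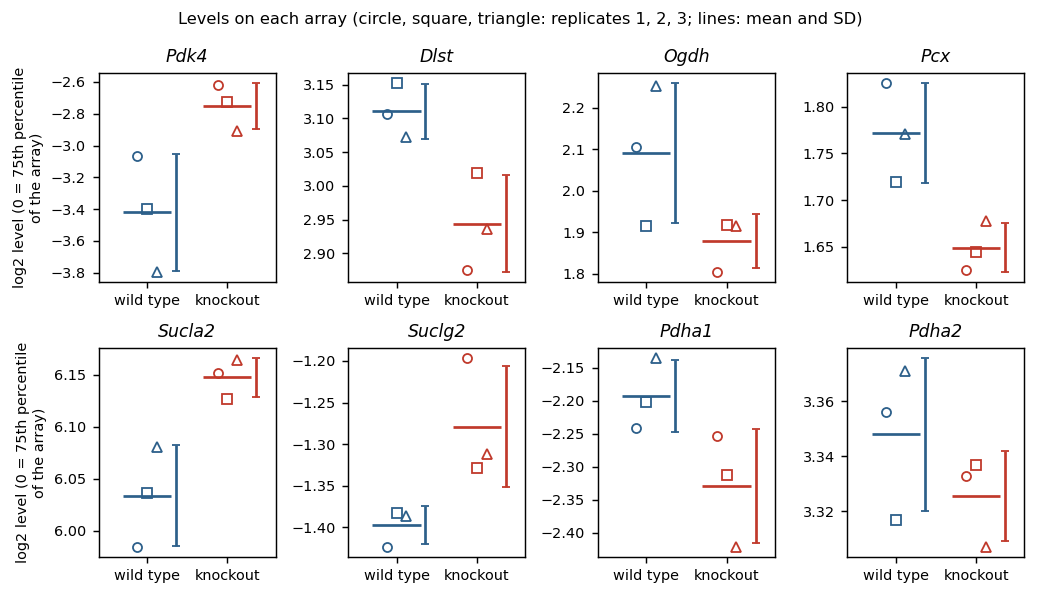
Log2 level on each array for 8 genes, relative to the array's 75th percentile; circle, square and triangle are replicates 1, 2 and 3, and lines give the mean and SD of 3 arrays. Vertical scales differ between panels: the Pdk4 panel covers over 1 log2 unit and the Pdha2 panel under 0.1.

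At the entry to the cycle no difference on a gene's brightest probe exceeded 0.1 in size. Cs, citrate synthase, had log2 levels of 3.967, 3.992 and 3.961 in the knockout and 4.059, 4.032 and 3.995 in the wild type. The genotypes did not overlap, yet the gap between their nearest arrays was smaller than the spread within either genotype. The Cs difference was -0.055 (SE 0.04, 95% interval -0.15 to 0.039, adjusted p = 0.44), and its other probe gave -0.053. Aco1, the cytosolic aconitase that also serves as an iron sensor, had 0.049 (-0.059 to 0.16) on its brighter probe. A second Aco1 probe gave 0.38 with an SE of 0.15 (adjusted p = 0.20 among single probes) and was well above background on 5 of 6 arrays. That gap of 0.33 was the largest between tested probes of any member.

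The 5 isocitrate dehydrogenase genes all had differences under 0.1 in size. The NAD-dependent mitochondrial enzyme, the form that runs the cycle, had log2 differences of 0.004 in its catalytic subunit gene Idh3a, -0.005 in Idh3b and -0.012 in the X-linked Idh3g. Their 95% intervals were -0.12 to 0.13, -0.12 to 0.11 and -0.11 to 0.089. The NADP-dependent enzymes had 0.073 in Idh1, the cytosolic form (-0.10 to 0.25), and 0.079 in Idh2, the mitochondrial form (-0.088 to 0.25). All 5 genes had overlapping genotypes.

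The 2-oxoglutarate dehydrogenase complex, which makes succinyl-CoA, had negative differences in both of its own subunit genes, and neither was called. Dlst, its E2 core, had log2 levels of 2.88, 3.02 and 2.94 in the knockout and 3.11, 3.15 and 3.07 in the wild type. Every knockout array lay below every wild-type array. The Dlst difference was -0.17 (SE 0.05, 95% interval -0.29 to -0.040, adjusted p = 0.13); by slide it was -0.18 (slide 1) and -0.14 (slide 2), and blocking on the slide gave an adjusted p of 0.16. Its second probe gave -0.11, and another, matched to another transcript of the gene, gave -0.022. For Ogdh, the E1 subunit, the levels were 1.80, 1.92 and 1.92 in the knockout and 2.11, 1.92 and 2.25 in the wild type. Wild-type replicate 2 fell among the knockout arrays, and the other wild-type arrays lay above them. The Ogdh difference was -0.21 (SE 0.09, 95% interval -0.44 to 0.011, adjusted p = 0.23), -0.15 on slide 1 and -0.34 on slide 2. It ran from -0.30 to -0.13 when 1 array was left out.

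Ogdh was measured by a pair of probes that do not overlap, 10 bases apart on the genome (chr11:6255299-6255358 and chr11:6255369-6255428, mm9, plus strand). They are printed because these separate oligonucleotides gave the same difference, -0.21 in the first and -0.22 in the second; both read the same 6 RNA samples.
Ogdh probe 1: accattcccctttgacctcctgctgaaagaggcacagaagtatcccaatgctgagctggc
Ogdh probe 2: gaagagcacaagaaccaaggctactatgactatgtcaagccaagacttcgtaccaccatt

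Succinyl-CoA synthetase, the next enzyme and the only one in the cycle to form a nucleoside triphosphate directly, had positive differences in all 3 of its genes, with 0 called. Sucla2, the beta subunit of the ATP-forming enzyme, had log2 levels of 6.15, 6.13 and 6.16 in the knockout and 5.98, 6.04 and 6.08 in the wild type. The Sucla2 difference was 0.11 (SE 0.04, 95% interval 0.011 to 0.22, adjusted p = 0.18), 0.13 on slide 1 and 0.083 on slide 2. The genotypes did not overlap on this probe, but a second Sucla2 probe, at transcript position 1956 against 1469, gave -0.025, on the other side of 0. Suclg2, the beta subunit of the GTP-forming enzyme, had levels of -1.20, -1.33 and -1.31 in the knockout and -1.42, -1.38 and -1.39 in the wild type. Its difference was 0.12 (SE 0.05, 95% interval -0.003 to 0.24, adjusted p = 0.22), again without overlap. Suclg1, the alpha subunit common to both enzymes, had 0.054 (-0.062 to 0.17) with overlapping genotypes.

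The second Suclg2 probe gave 0.15 (SE 0.05, adjusted p = 0.18 among single probes), on the same side as the first. It is shown because it lies far upstream in the same transcript, at position 845 against 1635 (chr6:95519645-95519704, mm9, minus strand).
Suclg2 probe: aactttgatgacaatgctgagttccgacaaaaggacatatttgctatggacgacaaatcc

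Succinate dehydrogenase belongs to both the cycle and the respiratory chain, and all 4 of its subunit genes had differences under 0.1 in size. The flavoprotein gene Sdha had a log2 difference of -0.025, the iron-sulphur subunit gene Sdhb 0.039, and the membrane anchor genes Sdhc and Sdhd -0.035 and -0.003. Sdhb alone of the 4 had genotypes that did not overlap, with log2 levels of 3.05, 3.02 and 3.04 in the knockout and 2.99, 2.98 and 3.02 in the wild type. Knockout replicate 2 and wild-type replicate 3 were level to 2 decimals. The 95% intervals of the 4 genes together spanned -0.14 to 0.13.

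For the closing steps, Fh1, fumarase, had a log2 difference of 0.067 (95% interval -0.095 to 0.23), and it was 0.14 on slide 1 and -0.069 on slide 2. Mdh2, the mitochondrial malate dehydrogenase, had 0.034 (-0.074 to 0.14) and Mdh1, the cytosolic one of the malate-aspartate shuttle, 0.065 (-0.061 to 0.19). Mdh1b, a gene related to Mdh1 by sequence, had levels of 5.19, 5.25 and 5.21 in the knockout and 5.36, 5.36 and 5.26 in the wild type. These did not overlap, although wild-type replicate 3 lay next to the knockout arrays. The Mdh1b difference was -0.11 (SE 0.05, 95% interval -0.22 to 0.007, adjusted p = 0.23), and its other probe gave -0.029.

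Pyruvate carboxylase and ATP citrate lyase, which add oxaloacetate to the cycle and draw citrate from it for lipid synthesis, had negative differences without overlap between genotypes. Pcx had log2 levels of 1.63, 1.64 and 1.68 in the knockout and 1.83, 1.72 and 1.77 in the wild type. Its difference was -0.12 (SE 0.04, 95% interval -0.23 to -0.015, adjusted p = 0.17), or -0.14 (slide 1) and -0.094 (slide 2) by slide. Blocking on the slide gave an adjusted p of 0.20. Acly had levels of -1.22, -1.19 and -1.25 in the knockout and -1.14, -1.08 and -1.15 in the wild type. The Acly difference was -0.096 (SE 0.04, 95% interval -0.20 to 0.004, adjusted p = 0.22) and was -0.096 on each slide.

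**Figure D3:**
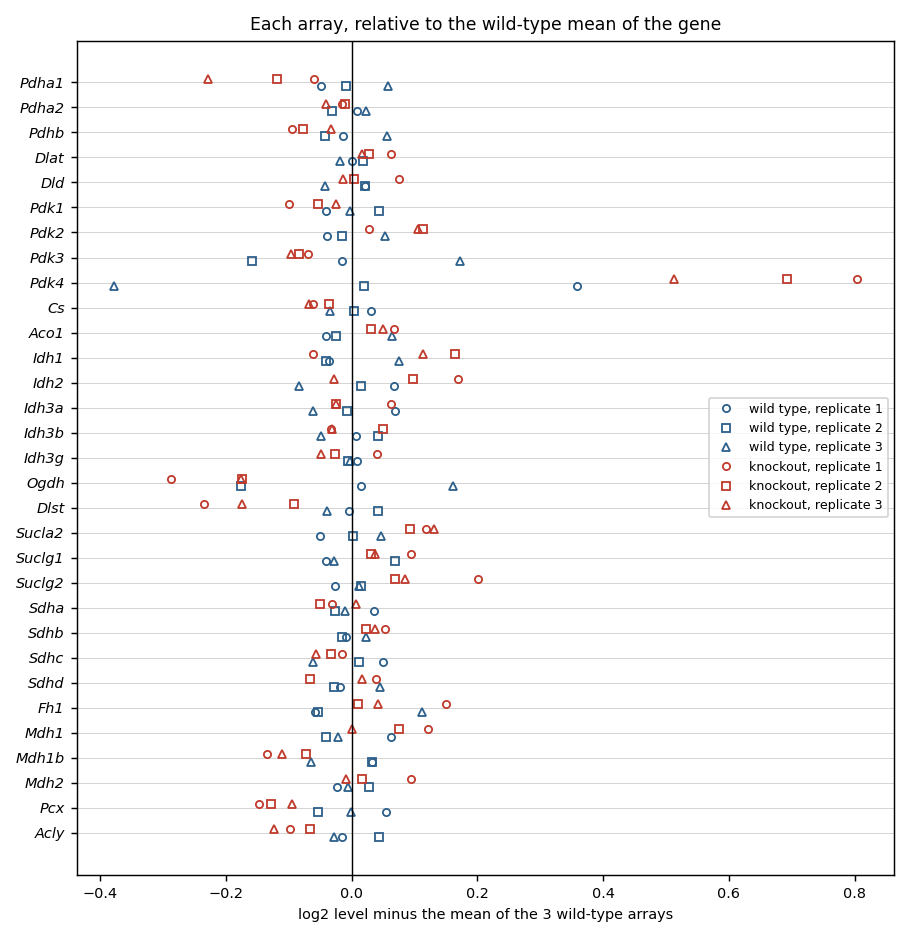
Log2 level of each array minus the mean of the 3 wild-type arrays, for the 31 genes; blue symbols are wild type, red symbols knockout, and the symbol's shape gives the replicate. In 10 genes the red and blue symbols do not overlap, and only in Pdk4 do the groups' means lie more than 0.25 apart.

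More than 1 probe could be tested for 15 of the members, which allows a comparison the choice of the brightest probe hides. In 12 of these 15 genes all tested probes lay on the same side of 0, and in Dlat, Pdk3 and Sucla2 they lay on both. The median gap between the lowest and highest log2 difference of a gene was 0.076, beside a median size of 0.065 for the members' differences. Of 49 tested probes, 0 passed in the limma fit over single probes, against 1.04% of all 28306 tested probes. An unadjusted p under 0.05 was found for 7 of the 49, against 22.5% of all tested probes. Another 3 probes, for Acly, Mdh1 and Sucla2 transcripts other than the main ones, were too dim to test.

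**Figure D4:**
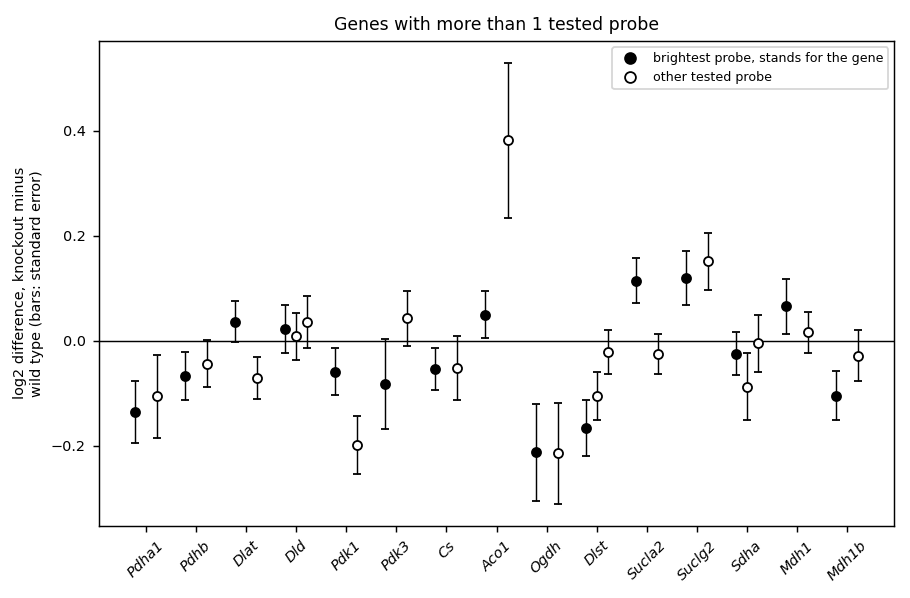
Log2 difference, knockout minus wild type, of every tested probe of the 15 genes with more than 1, with standard errors from the fit over probes (n = 3 arrays per genotype). Filled points are the brightest probes; the open point of Aco1 at 0.38 is the farthest from its partner, and the Ogdh points coincide.

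Related enzymes within the list were compared in 5 pairs, as the difference between 2 genes on each array, by a two-sided exact permutation test that cannot go below 0.10 with 3 arrays against 3. The Mdh1b level minus the Mdh1 level gave a knockout minus wild-type difference of -0.17 on the log2 scale, with no overlap and the smallest p the test can give (exact permutation p = 0.10, adjusted p = 0.50 over the 5 pairs). Pdha2 minus Pdha1 gave 0.11 (exact permutation p = 0.20, adjusted p = 0.50), and 0.030 after normexp background correction (exact permutation p = 0.50). Mdh1 minus Mdh2 differed by 0.031, and Sucla2 minus Suclg2 and Idh1 minus Idh2 by -0.004 and -0.006, each with an adjusted p of 0.90 in the same exact permutation test. With so few arrays these tests could not have reached 0.05, whatever the values.

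By position, the members lay on 15 chromosomes, at most 4 on any 1. Pdk4, Suclg1 and Suclg2 share chromosome 6 with Prss37, and their probes lie 35.0, 32.8 and 55.0 Mb from its probe. All 3 had positive differences. The 3 X-linked members, Pdha1, Pdk3 and Idh3g, all had negative ones on their brightest probes, of -0.14, -0.083 and -0.012. The second Pdk3 probe gave 0.042, and on slide 1 alone Pdk3 was at 0.010 and Idh3g at 0.005. Neither group was tested as such.

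Other genes of the pathway came from a list of 50, covering phosphatases of the pyruvate dehydrogenase complex, other oxoacid dehydrogenases, mitochondrial carriers, lactate and glutamine enzymes and the enzymes that load acetyl-CoA. Of these, 46 were tested, and Pdp2, Pck1, Acod1 and Oxct2b were not among the tested genes. The limma fit called 1 of 46 lower and 0 higher, 11 of 46 (23.9%) had an unadjusted p under 0.05, and 17 of 46 (37.0%) did not overlap between genotypes. Their median log2 difference was -0.02. These shares also lay near those of all genes tested.

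The 1 called gene was Acss2, the cytosolic enzyme that makes acetyl-CoA from acetate. Acss2 had log2 levels of 1.56, 1.58 and 1.54 in the knockout and 1.87, 1.80 and 1.91 in the wild type. It fell by 0.30 in the knockout (SE 0.04, 95% interval -0.41 to -0.19, adjusted p = 0.042), or 1.23-fold, at chr2:155388126-155388188 (mm9). The knockout arrays all lay more than 0.2 below the nearest wild-type array. By slide the Acss2 difference was -0.27 (slide 1) and -0.37 (slide 2). Blocking on the slide gave an adjusted p of 0.063, which ends the call. The call was also lost when any 1 knockout array or wild-type replicate 1 or 3 was left out (adjusted p of 0.12, 0.15, 0.15, 0.13 and 0.055 in that order), with the difference between -0.31 and -0.28. It was lost as well with median centring (0.053) and when dim probes were kept (0.13).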

How the data were processed

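The 6 samples were hybridised to single-colour (Cy3) Agilent mouse arrays. Per the file headers, the deposited intensity values (processed signal, mean and background signal) and other spot columns such as flags came from Agilent Feature Extraction 10.7.3.1 (10.7 per the submitters' processing notes), with probe coordinates on mm9. The deposited log2 table has nearly equal sorted values in every column, and no step behind it is stated in the sources used here.

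Control spots were left out, and signals were divided by the 75th percentile of their array and taken to log2. Outlier-flagged spots were then left out, and the rest were averaged per probe. A probe was tested if well above background on every array of at least 1 genotype (28306 probes), and the brightest tested probe stood for a gene. Names came from a GRCm38.p6 RefSeq table by accession (27753 probes), symbol (5533) or synonym (460), else from the file (7428). Genotypes were compared in limma 3.58.1 (R 4.3.3), p-values were adjusted by Benjamini-Hochberg over the 18976 genes, and an adjusted p under 0.05 was a call. The steps were tested on simulated data, with 50 changed genes at each size of change. The calls recovered 1 of 50 genes at a log2 change of 0.15 and 4 of 50 at 0.3. They recovered 28 of 50 at 0.5 and 38 of 50 at 1. Of 76 calls, 5 were of unchanged genes. Changes of 0.3 or less were thus mostly missed there. The simulated noise was independent between arrays, with no slide effect, and the data themselves gave 467 calls. These rates need not hold in the data. The number of arrays limits the precision, and p-values measure the spread between these samples. All 31 members were named; those with an unadjusted p under 0.05, Pdha1 and Pdha2 by rule with every array, others chosen after their values were seen. Of the related genes, those called were named. Members, lists and tests were chosen with earlier results of these data known. Alternatives were normexp, quantile and median scaling, the deposited table, and other filters and probe rules. Further ones were a variance trend with robust fitting, array weights, slide or replicate block, and each array left out.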

Additional observations from a re-analysis of the deposited data

How the results depend on the processing

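No member was called under any of the 19 alternatives with a count of calls, and the lowest adjusted p of a member was 0.066 (Pdk4). Of 620 member values under alternatives, 29 had the other sign, all in 14 members of at most 0.083 in size. With normexp these were Idh3a (-0.0025), Suclg1 (-0.00034), Sdhb (-0.012) and Sdhc (0.023), with quantile normalization, the deposited table and array weights Idh3a (-0.0058, -0.0049, -0.032), with median centring Sdhd (0.00095), and with the mean of probes Dlat (-0.017). On slide 1 they were Pdk3 (0.010), Idh3a (-0.012), Idh3g (0.0054) and Sdhd (0.0097), and on slide 2 Aco1 (-0.016), Idh3b (0.018), Sdha (0.018), Sdhc (0.0039), Fh1 (-0.069) and Mdh2 (-0.0032). With 1 array left out the ranges were -0.0045 to 0.040 in Dld, -0.027 to 0.039 in Idh3a, -0.032 to 0.017 in Idh3b, -0.038 to 0.0070 in Idh3g, -0.024 to 0.028 in Sdhd, -0.16 to 0.0036 in Pdk3, -0.021 to 0.019 for the members' median, -0.0034 to 0.074 for Mdh1 minus Mdh2, -0.029 to 0.035 for Sucla2 minus Suclg2 and -0.080 to 0.11 for Idh1 minus Idh2, which was 0.0010 with the deposited table.

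Over all genes, 230 higher and 237 lower became 2 and 6 when dim probes were kept, and 125 and 150 with probes averaged per gene. They became 691 and 579 under a variance trend with robust fitting, 30 and 49 under the slide block, and 838 and 678 under array weights. At adjusted p under 0.1 they were 959 and 908. With 1 array left out they ran from 0 to 442 and from 2 to 337. They were 0 and 2 without knockout replicate 2, 12 and 37 without 1, and 5 and 9 without 3. Without wild-type replicate 1 they were 1 and 5, and without 2 they were 442 and 337. Of related genes, 0 were lower with median centring, no dim filter or either block, 0 to 1 with 1 array left out, and 1 was higher with array weights; at adjusted p under 0.1, 1 was higher and 2 lower. The cause was not tested. Replicate numbers are not said to pair mice, and deviations of same-numbered arrays correlated at -0.028, -0.027 and 0.16; with the replicate block 0 genes were higher and 2 lower, and no member was called.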
